A study of Mus musculus with 2 samples.

Results

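The integrins described here are 8 receptor subunits that fibroblasts use to hold on to the extracellular matrix: the alpha subunits Itga3, Itga5, Itga6, Itga7 and Itgav and the beta subunits Itgb1, Itgb3 and Itgb5. They were found by gene name among the transcript spots of both arrays, a rule that uses no measured value. The names themselves were chosen with earlier results of these data known. They were 8 of 18183 genes with a coding transcript on the array, covered by 21 probes on 30 spots.

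An integrin is a pair of one alpha and one beta chain that crosses the plasma membrane. The alpha chain largely sets which matrix protein is bound. Itga3, Itga6 and Itga7 make laminin receptors, whereas Itga5 and Itgav make receptors for proteins with an arginine-glycine-aspartate motif such as fibronectin and vitronectin. Itgb1 pairs with all 5 of these alpha chains, and Itgb3 and Itgb5 pair with Itgav. Inside the cell the beta chain binds talin and kindlin, which link it to actin and to the kinases of focal adhesions. All of these chains are made on ribosomes bound to the endoplasmic reticulum, the compartment that thapsigargin disturbs by blocking its calcium pump.

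The cells were NIH3T3, an established line of mouse fibroblasts, and both groups were subconfluent cultures of this same line in serum-containing medium. The control group received no drug and the stress group received thapsigargin at 10 µM for 3 h, and cycloheximide was added to both just before lysis. Cleared cell lysate was separated on sucrose gradients into a polysome fraction (P, Cy3) and a pooled fraction of free RNA and monosomes (FM, Cy5). RNA of both was hybridised to the same two-colour array. Each group was measured on 1 array that held a pool of 3 preparations, so the groups have no replicates and no test between them was possible. The efficiency of translation is expressed by log2 P/FM, positive where more signal came from polysomes, and abundance by the A value, which averages the log2 signals of P and FM.

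The deposited labels were compared with the genes that mark the cells and the drug. Of 14 fibroblast markers 13 had at least 1 probe that was well above background in every signal, whereas none of 10 muscle, 7 epithelial and 5 endothelial markers had. Of 9 leukocyte markers Cd3e, Itgb2 and Lyz2 had such a probe, while Ptprc had none. The stress marker Hspa5, the chaperone BiP, was higher in A by 1.96 in the stress group and Ddit3 (CHOP) by 3.71. log2 P/FM of Atf4, the transcription factor of the integrated stress response, went from -1.60 to 1.83. Over the 10278 coding genes with A above 4.5 on both arrays the median change in log2 P/FM was -0.69 and that in A was 0.38, and the changes of the integrins are therefore also given relative to these medians. No array-wide scaling was applied, and scaling to the spike-in probes, which adds 2.48 to every change, moved the median of all genes from -0.69 to 1.79. The authors labelled the fractions in their measured proportions, with more polysome RNA in control cells and more FM RNA under stress. Whether spike-in scaling removes that difference in input was not tested. The paper reported a loss of heavy polysomes and less protein synthesis in stressed cells. Values with spike-in scaling are therefore given here only to show how the results depend on processing.

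All 8 integrin genes had at least 1 probe with A above 4.5 on both arrays. These were 11 of the 21 probes, and each of the 11 was well above background in all 4 signals. The other 10 were below this filter, and none of them was well above background in every signal. Some of the probes that the results turn on are shown here because 2 probes of the same mRNA did not always move together. The sequences are those of the array design in the deposited files, 5′ to 3′ on the strand of the mRNA, with positions on mm9 (NCBI build 37). Exons and untranslated regions of that build were not analysed here. The first Itgb1 probe (chr8:131256492-131256551, plus strand) starts at position 3206 of its transcript and the second (chr8:131246349-131246408, plus strand) at position 1840. A further Itgb1 probe (chr8:131250931-131255949, plus strand) was designed on the beta1D splice form and its 60 bases are spread over 5019 bases of the genome. The probes of Itgav (chr2:83646133-83646192, plus strand), Itgb5 (chr16:33949123-33949182, plus strand) and Itga5 (chr15:103175022-103175081, minus strand) are shown with them, each as its first 30 bases.
Itgb1, first probe: aaataaaattgacacagttgatgttcaagt
Itgb1, second probe: tggacgcttactgcaggaaagagaacagtt
Itgb1, beta1D form: aactatggacgtaaagctggtctctgagtt
Itgav: gggaatttagtggcaaagtatatattggta
Itgb5: gccagacaagaaggtatccggaagagtctg
Itga5: gggttgatctggagcccagtctcggattct
The Itga5 probe is 1 of 4 among the 21 with a stop triplet in all 3 reading frames, so it cannot lie wholly inside a coding region.

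In control cells the integrin mRNAs fell at very different points of the translation range. Itgb5 had log2 P/FM of 1.23, above 83.3% of coding genes, and Itgb1 0.82, Itga3 0.66 and Itga5 0.48 also lay above the median of all genes, 0.31. Itga6 was close to an equal split at -0.13. Itgb3 (-1.48), Itgav (-1.50) and Itga7 (-1.51) lay together at the low end, where only 5.34 to 5.72% of coding genes were lower. The SD between probes of the same gene was 0.32 in control cells (median over 3982 genes with 2 or more probes), so the order within the low group of 3 cannot be resolved, nor can that of Itgb1 against Itga3 or of Itga3 against Itga5. The steps from Itga5 to Itga6 and from Itga6 to the low group were larger than that spread. The step from Itgb5 to Itgb1 was not resolved, since the 2 Itgb1 probes lay at 0.50 and 1.13 in control cells (SD 0.45).

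Under stress the range narrowed. The 8 genes lay between -0.74 and 0.94, while in control cells they had lain between -1.51 and 1.23. log2 P/FM was higher than in control cells for 6 of the 8 integrins, beside 30.4% of all coding genes. Of the 6, Itga5 was level and Itgb1 had probes that disagreed. The median change of the 8 was 0.43, or 1.12 above the median of all genes. Relative to that median 7 of the 8 lay above and Itgb5 below. This count was the same in each of the alternative treatments of the signals that kept all 8 genes, scaling to the spike-ins included, although under the latter all 8 changes as measured were above 0.

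**Figure D1:**
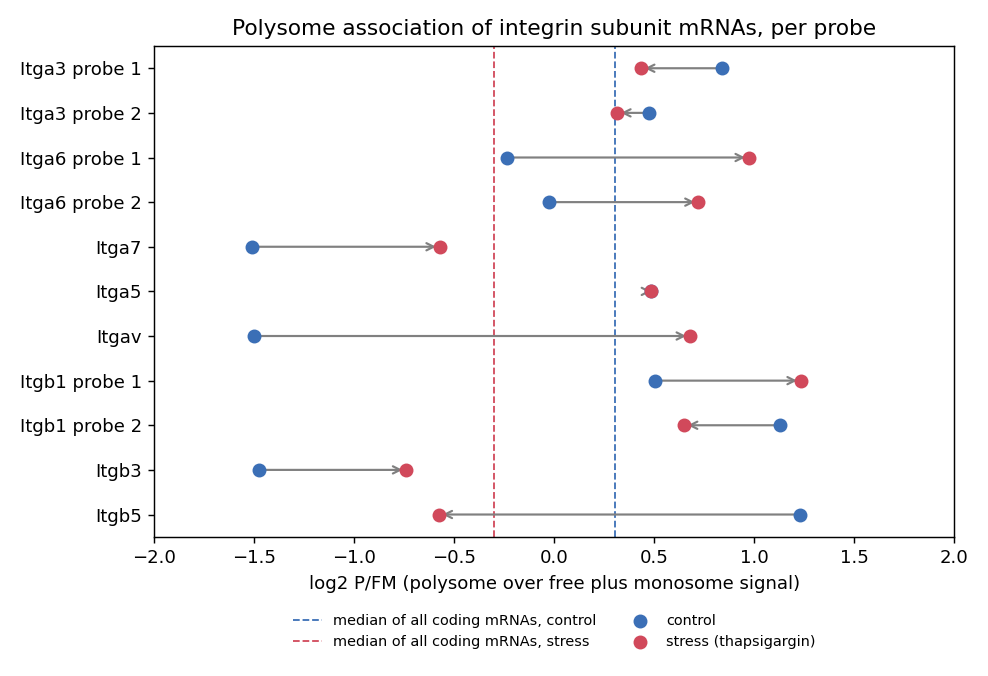
Log2 P/FM (x axis, log2 units) of the 11 integrin probes with A above 4.5, in control (blue) and stress (red), with arrows from control to stress and dashed lines at the medians of all coding mRNAs. Itgav moved farthest to the right (-1.50 to 0.68) and Itgb5 farthest to the left (1.23 to -0.58), and the 2 Itgb1 probes moved in opposite directions. Scaling to the spike-ins would move every stress point to the right, past its control point.

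Changes with stress were read in the order of the receptors that the chains build, beginning with the laminin-binding alpha chains. Itga6, which can pair with Itgb1, had 2 bright probes. On the first, P went from 134 to 252 units and FM went from 158 to 129, and log2 P/FM went from -0.24 to 0.97. On the second, P went from 100.3 to 211 and FM from 102 to 128, and log2 P/FM from -0.03 to 0.72. Both probes were thus higher, by 1.21 and 0.75, with an SD between them of 0.33. The mean, 0.98, lay above 88.6% of coding genes, and it went with a polysome signal 1.99-fold higher and an FM signal 1.01-fold higher.

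Itga7, a laminin-binding chain best known from muscle, was measured by a dim probe designed on a cDNA. P went from 24.0 to 37.9 and FM from 68.5 to 56.4. log2 P/FM was higher by 0.94 (from -1.51 to -0.57), still on the FM side of an equal split as measured. At this brightness the SD over spots of a single probe was 0.35 for a change, and the other Itga7 probe was not well above background on the control array, so this value rests on 1 dim spot per array. The change was 0.019 with no filter on A and 0.37 with normexp correction, and in both of these the dimmer probe enters the mean. It was 0.49 with no background subtraction, 1.54 with centring, 1.62 with processed signals and 3.42 with spike-in scaling. None of the 10 muscle markers was well above background.

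Itga3, a laminin receptor chain of spread cells, moved the other way by a small step. Its probes went from 0.84 to 0.43 and from 0.47 to 0.32, and P hardly differed (1.04-fold) while FM was 1.27-fold higher. The change of -0.28 was within the SD between probes of a gene, 0.36. It became positive with normexp background correction (0.45), with centring of each array (0.32) and with spike-in scaling (2.20). With normexp correction a further, dim Itga3 probe also enters the mean. As reported the change was 0.41 higher relative to all genes.

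Of the alpha chains that bind fibronectin and vitronectin, Itga5, the classical fibronectin receptor chain, had nearly the same split on both arrays. Its P signal went from 291 to 430 and FM from 208 to 307, each 1.48-fold higher. The log2 P/FM values of the 2 arrays were 0.48 and 0.49. The change was 0.36 with processed signals, 0.43 with normexp correction, 0.51 with loess, 0.61 with centring of each array and 2.49 with spike-in scaling. As reported it lay 0.69 above the median of all genes, most of which had moved toward the FM fraction.

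Itgav, the alpha chain that pairs with Itgb1, Itgb3 and Itgb5, had the largest change of the 8. P went from 50.6 to 157 and FM from 143 to 98.0, so that the polysome share of both signals went from 26.1% to 61.5%. log2 P/FM was higher by 2.18, above 98.4% of coding genes. The SD over spots at this brightness, 0.18, comes from other probes printed repeatedly, whereas this probe had 1 spot per array. That SD does not cover the spread between cultures. Itgav was the only one of the 8 that met the rule for inducible mRNAs (an increase of at least 1 from a control log2 P/FM no higher than 0), which 9.89% of coding genes met. On a second Itgav probe only the P signal under stress was well above background, and the 4 probes on cDNA clones of the locus were not well above background in any signal. The size of the change was 0.41 with no filter on A and 0.66 with normexp correction, and in both of these the dim probes enter the mean.

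**Figure D2:**
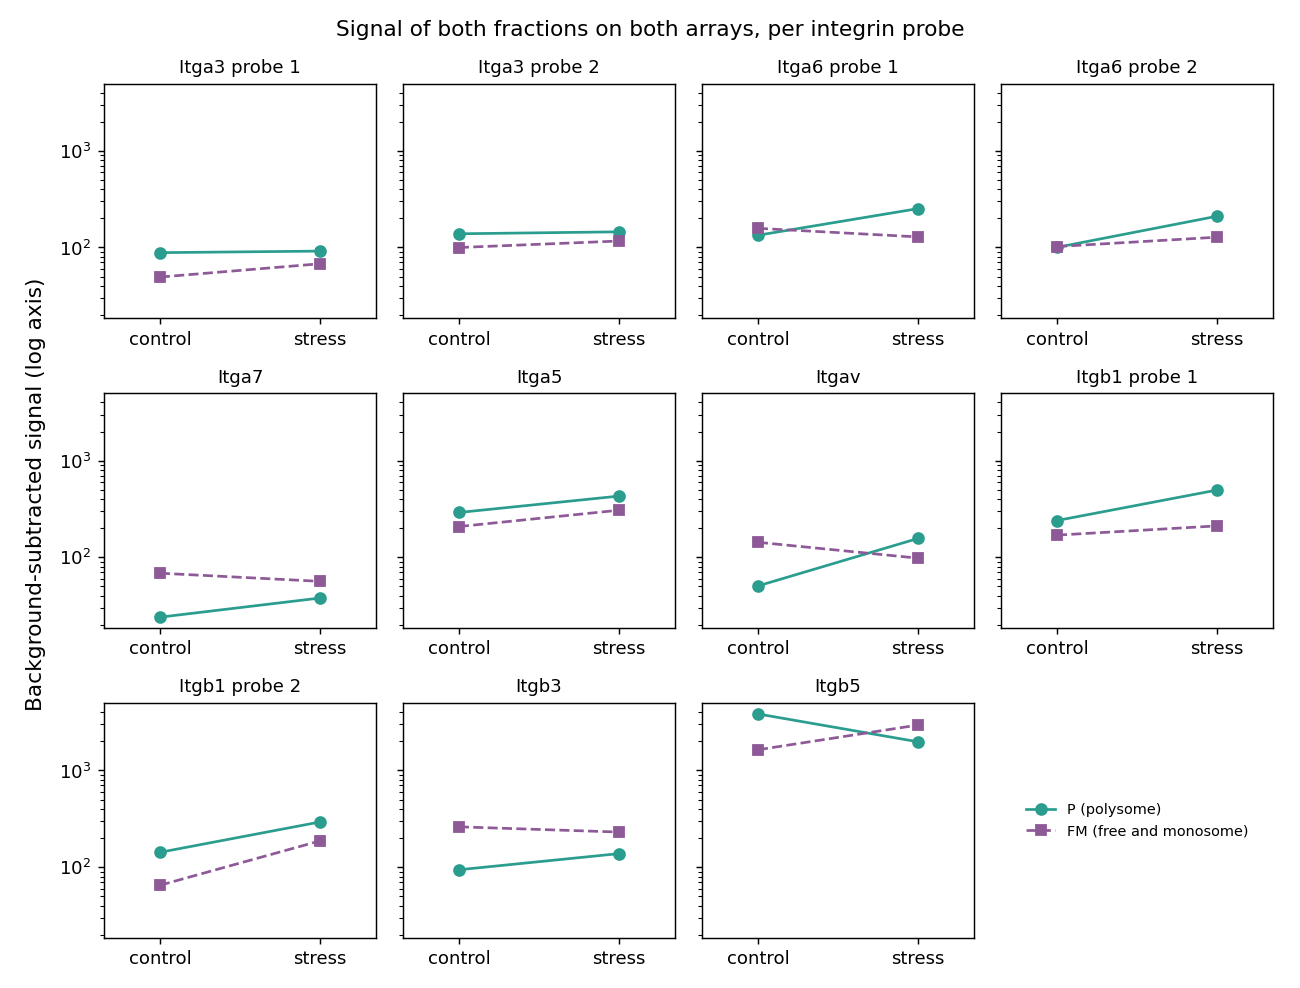
Background-subtracted signal (y axis, log scale, arbitrary units) in the polysome fraction (green circles, solid line) and the free and monosome fraction (purple squares, dashed line) of control and stress arrays, 1 panel per integrin probe. The lines cross with P rising above FM for Itgav and both Itga6 probes, and in the opposite sense for Itgb5. They run side by side for Itga5. Levels are not comparable between panels, since probes differ in how strongly they bind.

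Itgb1 is the beta chain that all 5 alpha chains described here can pair with. The first probe was printed at 10 spots, of which 9 were used after 1 was marked as an outlier by the scanner software. Over the 9 spots log2 P/FM lay between 0.30 and 0.68 (median 0.51) in control cells and between 1.12 and 1.40 (median 1.21) under stress, so the spots of the 2 arrays did not overlap. The change was 0.73 ± 0.13 (SD over 9 spots of the same pair of arrays, which are not replicates of the treatment).

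The second Itgb1 probe did not give the same picture. P went from 142 to 293 and FM from 65.0 to 187, and log2 P/FM went from 1.13 to 0.65, a change of -0.48. On both probes P was about equally higher (2.07- and 2.06-fold), and they differed in FM (1.25-fold on the first and 2.88-fold on the second). The SD of the change between them was 0.86, against 0.36 for the median gene, and the mean of 0.12 is therefore no estimate of 1 common value. Both probes lay above the median change of all genes, -0.69, but the second by less than the 0.36 between probes of a gene, so only the first was resolved from it. Averaged over both probes Itgb1 had log2 P/FM of 0.82 and 0.94 and was the single integrin to meet the rule for resistant mRNAs (0.8 or more on both arrays), which 3.06% of coding genes met, although neither probe met it alone. The beta1D probe, for a form of striated muscle, was not well above background in any of the 4 signals.

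Itgb3 and Itgb5 are the beta chains that pair with Itgav, and they moved in opposite directions. For Itgb3, P went from 94.0 to 138 and FM from 261 to 231, and log2 P/FM was higher by 0.73 (from -1.48 to -0.74). Itgb3 thus remained on the FM side as measured. This value rests on 1 spot per array of a probe designed on a sequence outside RefSeq. On a dimmer Itgb3 probe, designed on the RefSeq transcript, 1 of 4 signals, P under stress, was well above background.

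Itgb5 gave the opposite pattern on a bright spot. P went from 3842 to 1978 and FM from 1637 to 2952, so that its polysome share went from 70.1% to 40.1%. log2 P/FM went from 1.23 to -0.58, a change of -1.81. The SD over spots at this brightness, 0.066, comes from other probes printed repeatedly, whereas this probe had 1 spot per array. Itgb5 was the only one of the 8 to meet the rule for sensitive mRNAs (lower by 0.8 or more), beside 46.4% of coding genes. It no longer met it with processed signals (-0.43), with loess (-0.47) or with spike-in scaling, where its change was 0.68. The median change differed with brightness. It was -0.40 for genes with a mean A of 4.5 to 5.5 and -0.12 for those of 5.5 to 7. Between 7 and 9 it was -0.61, and between 11 and 13, where Itgb5 lay, it was -1.68. Measured against genes of like A, Itgb5 was lower by 0.13 and Itga3 lower by 0.16, while the other 6 were higher, by 0.62 (Itga5) to 2.30 (Itgav). The part of brightness in these values was not tested.

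**Figure D3:**
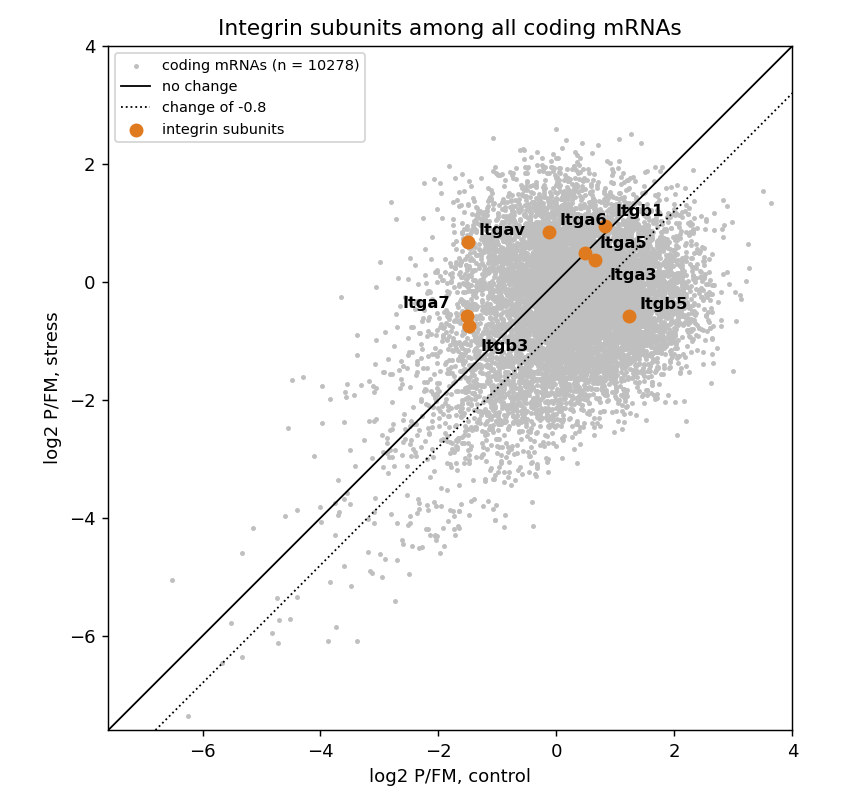
Log2 P/FM in control (x axis) and stress (y axis) for 10278 coding mRNAs (grey) and the 8 integrin subunits (orange, mean over probes with A above 4.5). Itgav, Itga6, Itga7 and Itgb3 lie well above the solid line of no change, Itgb1, Itga5 and Itga3 near it, and Itgb5 below the dotted line of the sensitive rule; spike-in scaling would raise all points alike.

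The alpha and beta chains of a receptor can be set side by side on this ratio. In control cells the vitronectin receptor chains Itgav and Itgb3 had almost the same log2 P/FM (-1.50 and -1.48), whereas under stress Itgav was at 0.68 and Itgb3 at -0.74. Each of these values rests on 1 spot per array, and the Itgb3 probe was designed on a sequence outside RefSeq. Itgav and Itgb5 began 2.73 apart and exchanged sides as measured. Scaling to the spike-ins, which adds 2.48 to every change, would put all of these chains on the polysome side under stress. Under stress Itga5 was at 0.49 and Itga6 at 0.85, while their partner Itgb1 was at 1.23 on its first probe and 0.65 on its second. Itgb4, which also pairs with Itga6, was at 0.58 in control cells and -0.71 under stress. With 1 array per group the spread of these distances between cultures is unknown.

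Abundance was compared in the same way. The change in A was between -0.05 (Itgb5) and 0.98 (Itgb1), with a median of 0.35, and 7 of the 8 were above 0. None of the 8 was higher by 1 or more, against 11.8% of coding genes. Relative to the median of all genes, 0.38, Itgb1 was higher by 0.60 and Itgb5 lower by 0.44, both beyond the SD between probes of a gene, 0.19, and the other 6 lay at -0.19 to 0.18 from the median, no farther than about that SD. Again the 2 Itgb1 probes differed, 0.68 ± 0.08 (SD over 9 spots) on the first and 1.28 on the second. In a pooled lysate fewer cells with an mRNA and less of it per cell cannot be told apart. The direction of A turned with normexp correction, under which the median was -1.53 over 18176 genes, dim ones included. The median of 0.38 is over the 10278 genes above the filter. The 3 coding genes closest to the mean of the Itgb1 probes in both ratios and in the change in A, out of 5787 bright ones, were Tob2 (distance 0.05), Ehd4 (0.11) and Hs6st1 (0.11), and since those probes disagreed, these genes match a value that neither probe shows.

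The remaining integrin genes were mostly below the limit of measurement. Of 20 listed 19 had a probe and 5 of them passed the filter on A, none higher in log2 P/FM under stress as measured. Itgb4, the epithelial partner of Itga6, changed by -1.29 on 2 probes (SD 0.06), from 0.58 to -0.71. Itgb7, a leukocyte chain, changed by -0.79, Itgbl1, a beta-like protein that lacks the membrane anchor, by -0.80, Itgb2 by -0.64 and Itga2b by -0.20. The last was near the filter and not well above background in every signal. Their median lay 0.10 below that of all genes, with 2 of 5 above it, whereas that of the 8 lay 1.12 above it with 7 of 8. Members and lists were chosen with earlier results of these data known, so this contrast does not show that the 8 differ from other integrins. With spike-in scaling all 5 were higher. The collagen receptor chains Itga1, Itga2, Itga10 and Itga11 were below the filter.

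Genes around the receptors were listed by role. Of 28 matrix and cell surface ligands 19 were measured, with a median change of 0.65, and 14 were higher and 5 lower, where 30.4% of all coding genes were higher. Among the bright ligands the largest values were Nid1 (from -1.42 to 1.42), a basement membrane protein that binds laminin, Ccn2 (from -0.42 to 2.12), a matricellular growth factor, and Thbs1 (from 0.02 to 1.65), a matricellular glycoprotein. The lowest were Tgfb1 (0.80 to -1.37), whose latent form Itgav receptors activate, Spp1 (osteopontin, 2.64 to 0.47) and Mfge8 (1.34 to -0.28), both ligands of Itgav receptors.

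Of 37 adaptors and kinases 34 were measured, with a median change of -0.86, 0.18 below that of all genes, and 25 of the 34 were lower, where 69.6% of all coding genes were. The largest differences were Ilk (2.22 to 0.01) and Parva (1.29 to -0.91), members of the same complex on beta chain tails, and Itgb1bp1 (1.62 to -0.43), which binds the Itgb1 tail. At the upper end were Tns3 (0.33 to 1.90), an actin-linking tensin, Dock1 (0.44 to 1.55), an exchange factor for Rac, and Crkl (0.94 to 1.91), an adaptor. The share of the adaptors and kinases classed as sensitive was 18 of 34, beside the 46.4% of all coding genes.

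Of 15 membrane partners all were measured and their median change, -0.70, was that of all genes to within 0.01, with 4 higher and 11 lower, also near the 69.6% of all genes. Bsg (basigin) went from 3.05 to -0.67, Thy1 from 1.03 to -0.74 and the tetraspanin Cd63 from 1.06 to -0.62. Cd44, the hyaluronan receptor, went from 0.11 to 1.07, the shedding protease Adam17 from 0.81 to 1.50 and Slc3a2 (CD98), which binds beta chain tails, from 0.29 to 0.63. These lists, also chosen with earlier results of these data known, are described by counts and medians only. With spike-in scaling all 19 ligands, all 34 adaptors and kinases and 14 of the 15 partners were higher.

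**Figure D4:**
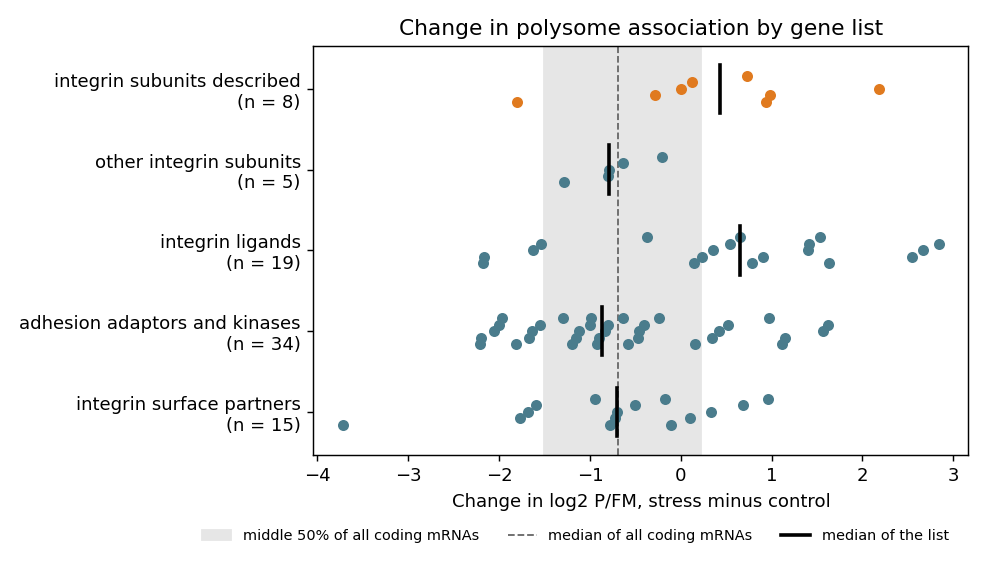
Change in log2 P/FM (x axis, stress minus control) of each measured gene (points) in 5 lists, with the list median (black bar), the median (dashed line, -0.69) and the middle 50% (grey band, -1.51 to 0.22) of all coding mRNAs. The 8 integrin subunits (median 0.43) and the ligands (0.65) lie to the right of the dashed line, while the adaptors and kinases (-0.86) lie slightly to its left; spike-in scaling moves points, line and band together.

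The integrin changes were followed over all treatments of the signals. Relative to all genes, Itga6 was higher by 0.54 to 2.21, Itgav by 0.32 to 2.96, Itgb1 by 0.41 to 1.73 and Itgb3 by 0.17 to 1.73. Itga7 (0.03 to 1.88), Itga5 (0.09 to 1.00) and Itga3 (0.01 to 0.57) came close to the median in some of them. Itgb5 was lower by 0.17 to 1.99. Normexp correction gave the lowest of these values for every subunit but Itga3, and under it dim probes are not filtered out.

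**Figure D5:**
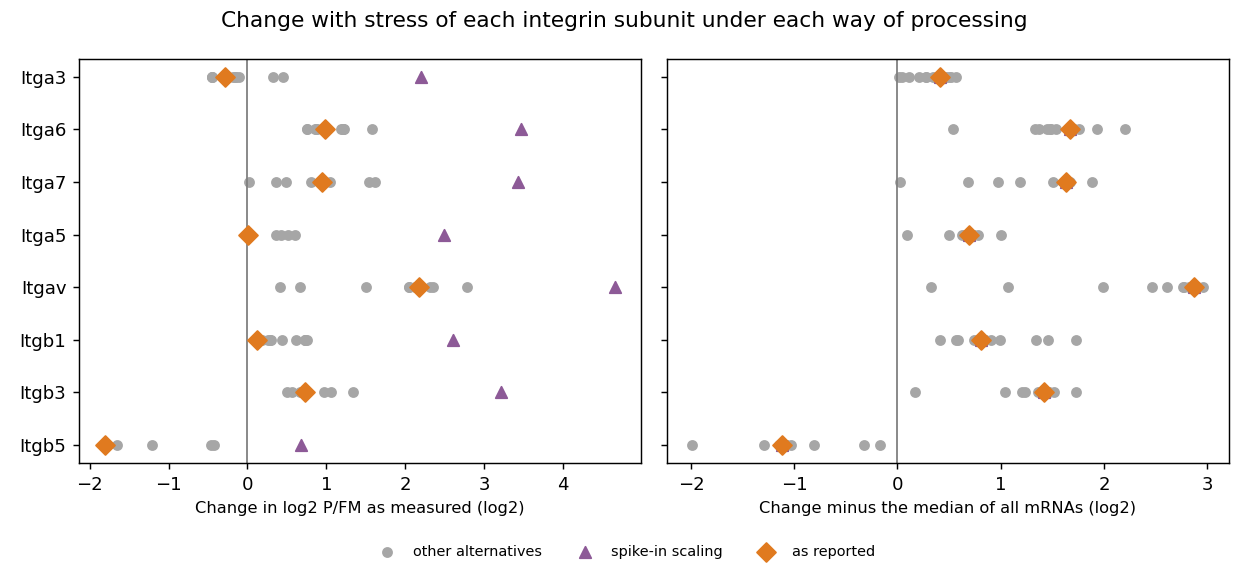
Change in log2 P/FM with stress of each integrin subunit as measured (left, x axis) and minus the median of all mRNAs (right, x axis), as reported (orange diamonds), with spike-in scaling (purple triangles) and with the other alternatives (grey circles). Left, spike-in scaling brings every subunit above 0, Itgb5 included; right, the spike-in triangles lie under the diamonds, and Itgb5 stays on the negative side in every alternative.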

How the data were processed

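RNA of 3 preparations per group was pooled and hybridised by the authors to 1 array per group, with 300 ng of RNA in all and the proportions of both fractions kept. Per the file headers, spot and background intensity values were extracted with Feature Extraction 10.7.1 and not normalized. The deposited files also hold processed intensity values, a log10 ratio of Cy5 to Cy3, which was not used, and flags of 0 or 1. The authors' own deposited log2 values, Cy3 over Cy5, cover 11483 entries, 99.1% of them within 0.001 of the means computed here without outlier spots.

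Here mean signals were corrected by the local median background and raised to a floor of 0.5 (limma 3.58.1, R 4.3.3), the method that the study names. Of 43379 transcript spots 295 marked as outliers were left out, and none was saturated. Spots were averaged per probe, then probes with A above 4.5 on both arrays per gene symbol. Of 153 negative control spots none passed this filter. Symbols were updated from a RefSeq table (GRCm38.p6, names only). Well above background were 42.5% (P) and 46.3% (FM) of spots on the control array and 44.6% and 45.4% on the stress array. The number of arrays limits the precision, and spot and probe spreads cover array error only.

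Named were the 8 integrins with every probe, other measured integrins, the 3 largest rises and falls of each bright list (A above 7, all probes well above background), the 3 mRNAs nearest to Itgb1, and Hspa5, Atf4 and Ddit3. Members and lists were chosen with earlier results of these data known. The rules for sensitive and inducible mRNAs were run on simulated bright probes with large planted changes and little noise. That run did not cover background correction, the filter on A or the averaging over probes. Alternatives were other background corrections, signal columns, scalings, filters and averages (14 in all) and, chosen after seeing the data, the RefSeq accession as the unit. Normexp correction was run with an offset of 50, which lifts dim probes above the filter on A. Under it 18176 genes were kept, as many as with no filter, so its values differ from those reported in both correction and probes.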

Additional observations from a re-analysis of the deposited data

How the results depend on the processing

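The median change in log2 P/FM of the 8 integrins (0.43 as reported) was 1.03 with centring of each array, 2.91 with spike-in scaling and 0.063 with the RefSeq accession as the unit, which leaves 6 of the 8 and was chosen after seeing the data. Their median in control cells (0.18) was -0.43 with normexp correction, under which dim probes also enter the means. The median change in A (0.35) turned to -1.18 with normexp correction and to -0.025 with processed signals, and was 0.62 with spike-in scaling and 0.10 with no filter. The 1 sensitive integrin, Itgb5, was not counted (0 sensitive) with processed signals, loess or spike-in scaling, and only under the last was its change above 0 (0.68). Of inducible integrins there were 0 with normexp correction or no filter, 2 with median signals, mean signals over probes or the brightest probe, 3 with processed signals, and 4 with loess, centring or spike-in scaling. Of resistant ones there were 2 with spike-in scaling and 0 with normexp correction, no background subtraction, loess, centring, mean signals over probes, the brightest probe, A above 7, no filter or the authors' values. Of the other values for single integrins 82 moved by less than the SD between probes of a gene and 31 by more. The causes were not tested. With A above 7 only 5 integrins were left. No paired analysis was possible because each group has 1 array. Probes not well above background in every signal limit Itga7, Itgav and Itgb3 to 1 usable probe each.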
